A study of Arabidopsis thaliana with 29 samples.

Results

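The 46 genes described here encode the nuclear-encoded photosystem subunits, light-harvesting antenna proteins, Rubisco small subunits and electron carriers of the Arabidopsis chloroplast. They were chosen by gene identity and not by their values, although earlier results of these data were known. They are LHCB1 to LHCB6 and LHCA1 to LHCA4, the RBCS family, nuclear PSB and PSA genes, PETE2 and PETC. All 46 were found among the 33559 genes of the table, and all 46 passed the filter that left 18521 genes for testing. They comprise 14 genes of the photosystem II (PSII) antenna, 4 of the photosystem I (PSI) antenna, 4 of Rubisco, 10 of the PSII core and its lumenal proteins, 12 of PSI, and 2 electron carriers.

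RNA-seq was carried out on leaves of 3-week-old soil-grown Col-0 wild-type plants that had been sprayed with ABA, AMF1 (AMF1β in the study's text) or AMF4, each at 10 μM, or with DMSO as the control. AMF1 and AMF4 are fluorinated derivatives of AM1, a synthetic agonist of ABA receptors, and differ in their fluorine atoms. Leaves were sampled 6, 24 or 72 h after the spray. The groups held 3 libraries each at 6 h, 3 each at 24 h except 2 for AMF4, and at 72 h 1 each for DMSO and ABA and 2 each for AMF1 and AMF4, 29 libraries in all.

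In the thylakoid membrane, light is collected by the antenna proteins and passed to PSII, where water is split, and to PSI, which reduces ferredoxin. Electrons move between the photosystems through the cytochrome b6f complex and plastocyanin. In the stroma, Rubisco, built from chloroplast-encoded large and nuclear-encoded small subunits, fixes CO2. The nuclear genes for these proteins are among the most strongly transcribed in leaves, are light and clock regulated, and are commonly lowered by ABA and drought.

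Promoters of 5 members that the results turn on are shown, 250 bases before the annotated start, because these are the members whose calls were shared between compounds or times (RBCS1B, LHCB1.3, LHCB4.1, LHCB4.3), with RBCS2B, the chromosomal neighbour of RBCS1B, beside it. They are from the RefSeq TAIR10.1 assembly, and capitals mark matches on either strand to the G-box (CACGTG), the ABRE core (ACGTG), the I-box (GATAAG), the CCAAT box (CCAAT), the evening element (AAAATATCT) or the CCA1 site (AANAATCT). A G-box holds the ABRE core on both strands, so that the 2 ABRE cores counted for RBCS2B and for LHCB4.1 are those of the G-box. RBCS1B (AT5G38430), the member that fell most at 6 h, lies at chr5:15385321-15385570 (minus strand), and RBCS2B (AT5G38420) at chr5:15382072-15382321 (minus strand). LHCB1.3 (AT1G29930) is shown from chr1:10477635-10477884 (plus strand), LHCB4.1 (AT5G01530) from chr5:208616-208865 (plus strand) and LHCB4.3 (AT2G40100) from chr2:16745378-16745627 (plus strand).
RBCS1B: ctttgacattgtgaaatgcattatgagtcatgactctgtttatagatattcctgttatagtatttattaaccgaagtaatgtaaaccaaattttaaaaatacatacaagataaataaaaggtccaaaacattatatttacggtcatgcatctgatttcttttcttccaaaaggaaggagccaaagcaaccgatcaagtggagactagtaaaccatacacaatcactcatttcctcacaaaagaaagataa
RBCS2B: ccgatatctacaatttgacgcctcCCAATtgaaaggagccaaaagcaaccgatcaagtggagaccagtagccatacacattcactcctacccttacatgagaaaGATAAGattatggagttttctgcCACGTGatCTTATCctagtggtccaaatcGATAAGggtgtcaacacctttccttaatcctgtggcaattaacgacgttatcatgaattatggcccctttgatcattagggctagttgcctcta
LHCB1.3: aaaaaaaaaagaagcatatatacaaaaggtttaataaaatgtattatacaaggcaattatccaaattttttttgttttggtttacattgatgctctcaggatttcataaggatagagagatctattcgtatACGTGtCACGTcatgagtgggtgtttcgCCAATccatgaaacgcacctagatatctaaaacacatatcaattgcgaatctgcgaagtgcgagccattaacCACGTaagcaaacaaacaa
LHCB4.1: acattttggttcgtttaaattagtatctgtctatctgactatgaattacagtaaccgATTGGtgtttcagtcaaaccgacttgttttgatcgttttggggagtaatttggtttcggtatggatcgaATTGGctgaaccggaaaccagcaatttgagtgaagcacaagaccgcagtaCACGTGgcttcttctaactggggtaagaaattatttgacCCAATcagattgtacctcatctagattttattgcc
LHCB4.3: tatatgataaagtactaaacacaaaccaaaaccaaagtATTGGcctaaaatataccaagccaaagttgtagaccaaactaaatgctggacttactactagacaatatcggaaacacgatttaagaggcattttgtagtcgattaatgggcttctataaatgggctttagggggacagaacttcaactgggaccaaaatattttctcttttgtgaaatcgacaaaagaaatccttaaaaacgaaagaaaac

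None of these motifs occurred in the window of RBCS1B, whereas that of RBCS2B held a G-box, 3 I-boxes and a CCAAT box. The windows end at the annotated starts and do not cover matching sequence. A like stretch of letters lies before the G-box and I-boxes in RBCS2B, but towards the end of the RBCS1B window. Sequence past the annotated start of RBCS1B was not searched, so the contrast may come from where the starts are annotated. The window of LHCB1.3 held 3 ABRE cores and 1 CCAAT box, that of LHCB4.1 a G-box and 3 CCAAT boxes, and that of LHCB4.3 only 1 CCAAT box. Over the 46 members, 9 windows held a G-box (19.6%, against 6.49% of 27443 promoters), 18 an ABRE core (39.1%, against 22.9%) and 12 an I-box (26.1%, against 12.3%). A CCAAT box was in 30 (65.2%, against 46%), of which 13 were among the 14 PSII antenna genes, a CCA1 site was in 10 (21.7%, against 13.4%), and the evening element was in 0 (against 2.36%). The matches are a description of these windows, and a missing match says only that these letters do not occur there. All 46 members were matched to the assembly by their gene IDs.

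The members were among the most abundant transcripts of the leaf. Values are FPKM, fragments scaled by transcript length and by the mapped fragments of a library, so that levels of genes of different length can be compared. By mean FPKM over all libraries, 6 of the 10 most abundant genes, 32 of the top 50 and 43 of the top 100 were members. RBCS1A (AT1G67090), the main Rubisco small subunit gene, ranked first with a mean of 17107 FPKM, followed by LHCB1.3, a gene of the major trimeric antenna LHCII, with 16351 and by PSBR (AT1G79040), a lumenal PSII protein needed for stable oxygen evolution, with 11118. LHCB4.3, a minor form of the antenna protein CP29, stood apart at 82.5 FPKM, while the next lowest member, PSBO2, a form of the oxygen-evolving protein PsbO, was at 1177.

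Together the members held between 14.2% and 26.6% of the summed FPKM of a library. The share was 26, 24.2 and 22.2% in the DMSO libraries at 6 h and 18, 19.9 and 16.8% with AMF4, and these groups did not overlap. With ABA it was 19.9, 24.9 and 22.5% and with AMF1 22.1, 24.1 and 23.8%, both overlapping the DMSO range. At 24 h the DMSO libraries spread widely, at 22.9, 17.6 and 26.6%, so that they overlapped ABA (20.6, 21.3 and 24%), AMF1 (15.9, 21.9 and 14.2%) and AMF4 (18.2 and 15.9%). FPKM values are relative to the rest of a library, and fewer cells of a type and less RNA per cell cannot be told apart in leaf samples.

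**Figure D1:**
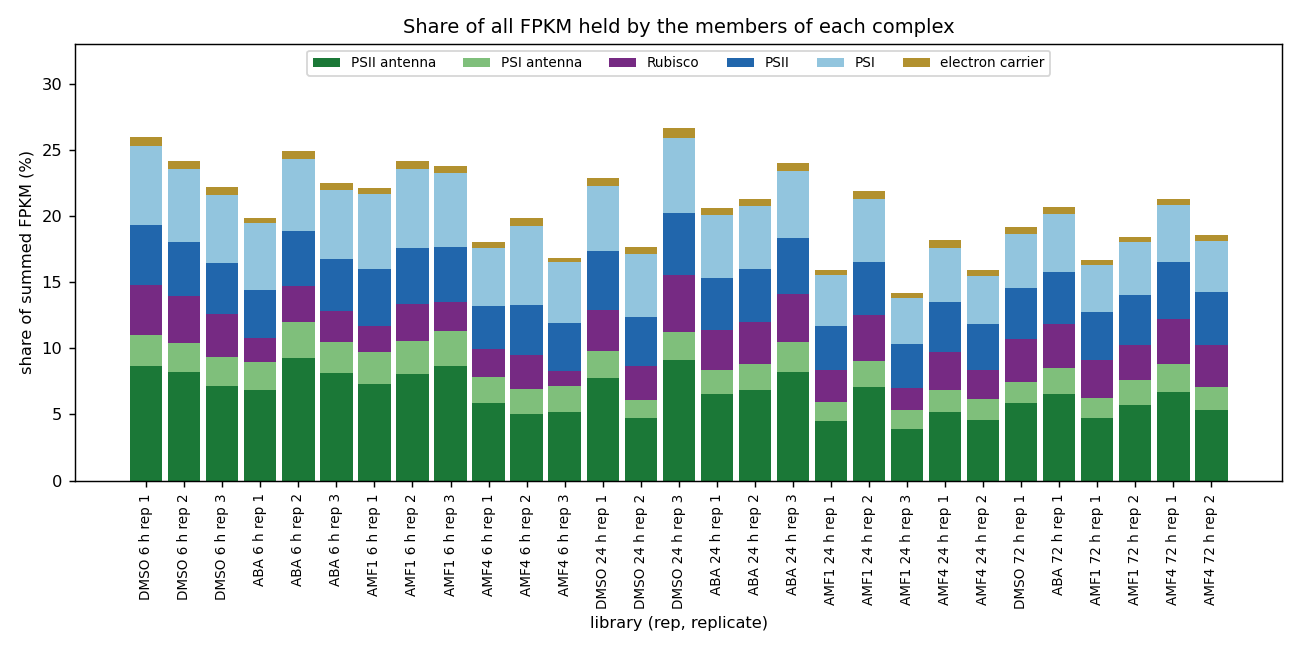
Share of each library's summed FPKM (vertical axis, percent) held by the members of each complex, with 1 stacked bar per library in order of time and compound. All 3 AMF4 libraries at 6 h lie between 16.8% and 19.9%, below the DMSO libraries of that time, and at 24 h the DMSO libraries range from 17.6% to 26.6%.

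Members moved together between libraries of a group. Over the 27 libraries of groups with 2 or more, the median Pearson r of within-group deviations between pairs of members was 0.75, given as a description since the points share libraries. In DMSO replicate 2 at 24 h 43 of 46 members lay below their group mean, and in replicate 3 45 of 46 lay above it. In AMF1 replicate 2 at 24 h all 46 lay above the mean. The residual SD of the members on the log2 scale had a median of 0.31, against 0.24 for all genes tested and 0.26 for 1518 other nuclear genes within the members' range of levels. It was highest for LHCB1.4 (0.85), LHCB2.3 (0.69) and RBCS2B (0.56) and lowest for PSBQ2 (0.19).

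Several libraries stood apart from their groups. AMF4 replicate 1 at 6 h listed 21835 genes at 1 FPKM or more, against 16265 to 16872 in the others, and had the lowest relative depth (0.442, over a range to 2.21 set from the steps between low values). DMSO replicate 1 at 6 h had the next lowest relative depth (0.513) and the highest summed FPKM of all libraries (1140080). The clock gene LHY was at 27.9, 10.6 and 0.436 FPKM in the DMSO libraries at 6 h and between 0.433 and 0.983 FPKM in the treated libraries, so that DMSO replicates 1 and 2 stood apart from the others of that time. Root, flower and meristem markers were low or absent, with the root gene EXPA7 and the meristem gene CLV3 at 0 in all 29 libraries. In AMF4 replicate 1 at 6 h, however, the root genes COBL9 and CASP1 were at 2.35 and 1.71 FPKM. The meristem gene WUS was at 2.03 FPKM in that library and at 0 in all others.

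At 6 h, the Rubisco small subunit gene RBCS1B fell with all 3 compounds, and AMF4 lowered further Rubisco and antenna genes. A gene was called when its adjusted p (limma, Benjamini-Hochberg over all 18521 genes) was under 0.05 and its level differed by more than 2-fold, with fold changes taken from log2(FPKM + 1). ABA lowered 1 of 46 members past these limits (3.24% of all genes tested were called lower), AMF1 1 (3.28%) and AMF4 5 (4.35%), and none rose. With adjusted p alone, AMF4 lowered 14 members (12.4% of all genes). The median log2 fold change of the members was -0.16 with ABA, -0.05 with AMF1 and -0.54 with AMF4, beside 0.01, 0.05 and 0.09 for all genes tested, and after quantile normalization the AMF1 median was above 0 (0.0234). With DMSO replicate 3 as the only control the medians of ABA and AMF1 were above 0 as well, at 0.089 and 0.228, and that of AMF4 was -0.26. With all 3 DMSO libraries, 38, 29 and 44 members were below 0 (48.8%, 44.7% and 42.1% of all genes). In DMSO replicate 1 all 46 members lay above their group mean, and in replicate 3 44 lay below it. Every treated library was below every DMSO library for 6 members with ABA (17.4% of all genes), 5 with AMF1 (16.9%) and 27 with AMF4 (14.6%). The comparisons of 1 time share their DMSO libraries.

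RBCS1B was at 4320.3, 4078 and 2314 FPKM in the DMSO libraries at 6 h. It was at 1038, 1363 and 1149.9 with ABA, at 974, 1380.4 and 939 with AMF1 and at 992, 861 and 599 with AMF4. All 9 treated libraries were below all 3 DMSO libraries, of which replicate 3 was the lowest. The gene fell with ABA (log2 fold change -1.55, SE 0.36, adjusted p = 0.00462), AMF1 (log2 fold change -1.67, SE 0.36, adjusted p = 0.00297) and AMF4 (log2 fold change -2.10, SE 0.36, adjusted p = 0.000285). Leaving out any 1 library of a comparison kept these calls, with adjusted p from 0.00303 to 0.0257, 0.00224 to 0.0173 and 0.000272 to 0.00252, respectively. With DMSO replicate 3, the control library that matched the treated ones in LHY, as the only control, the log2 fold changes were -0.98, -1.10 and -1.53 with adjusted p of 0.262, 0.184 and 0.0563.

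The share of RBCS1B in the summed FPKM of the RBCS family fell from 10, 11.6 and 8.18% in DMSO to 6.11, 5.67 and 4.97% with ABA, 5.35, 4.99 and 4.81% with AMF1 and 4.92, 3.6 and 6.85% with AMF4, groups that did not overlap with DMSO. The sequences of RBCS1B, RBCS2B and RBCS3B are alike, and 14%, 21.4% and 18.3% of the 50-base stretches of their transcripts occur in another gene, so that part of their reads may have been assigned to another of them. For RBCS1A the share was 1.48%.

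RBCS1A was at 28257, 21890.4 and 19598 FPKM in DMSO at 6 h, 11974, 16713 and 16519 with ABA, 11932, 18298 and 12812 with AMF1 and 14301, 17378 and 5542 with AMF4. The treated libraries were all below the DMSO libraries, and AMF4 replicate 3 was by far the lowest. The fall was called with AMF4 (log2 fold change -1.05, SE 0.36, adjusted p = 0.0371) but not with ABA (log2 fold change -0.62, SE 0.36, adjusted p = 0.251) or AMF1 (log2 fold change -0.71, SE 0.36, adjusted p = 0.188). RBCS2B also fell with AMF4 (log2 fold change -1.17, SE 0.43, adjusted p = 0.0492). Both calls were lost without DMSO replicate 1 or 2 or AMF4 replicate 3, and that of RBCS2B also without DMSO replicate 3 (adjusted p up to 0.24 for RBCS1A and 0.283 for RBCS2B). RBCS3B passed the adjusted p but not the fold limit (log2 fold change -0.98, SE 0.36, adjusted p = 0.0454), and without single libraries its adjusted p rose to as much as 0.175.

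Among the PSII antenna genes, LHCB1.2 and LHCB1.1, which encode subunits of the LHCII trimer, fell with AMF4 at 6 h. LHCB1.2 (AT1G29910) was at 7233, 6622 and 5609 FPKM in DMSO and 2957, 2727 and 1700.2 with AMF4 (log2 fold change -1.43, SE 0.35, adjusted p = 0.00504). LHCB1.1 (AT1G29920) was at 4889, 4648 and 3326 in DMSO and 2402, 2209 and 1203 with AMF4 (log2 fold change -1.19, SE 0.35, adjusted p = 0.0147). For both genes all AMF4 libraries were below all DMSO libraries. LHCB1.2 kept its call without any 1 library, and LHCB1.1 lost it without DMSO replicate 1 (adjusted p = 0.0533) or AMF4 replicate 3 (0.0857). With ABA, LHCB1.2 was at 3188, 6737 and 4739.7 and with AMF1 at 3388, 5177 and 4168, and with adjusted p of 0.394 and 0.228 neither difference passed. Of the 50-base stretches of LHCB1.2 and LHCB1.1, 10.6% and 20.5% occur in another gene, so that part of their reads may have been assigned elsewhere.

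LHCB1.3, the most abundant antenna gene, was at 29068, 24138 and 16557 FPKM in DMSO at 6 h, 17589, 20197 and 21787 with ABA, 17182, 20312 and 19341 with AMF1 and 14855, 11430.1 and 10054 with AMF4. The AMF4 libraries lay below all DMSO libraries and the other compounds overlapped them, and the difference with AMF4 did not pass (log2 fold change -0.92, SE 0.35, adjusted p = 0.0536).

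Smaller falls with AMF4 at 6 h, past adjusted p but within 2-fold, spread over several complexes. They included LHCB6 (AT1G15820), the monomeric antenna protein CP24, at a log2 fold change of -0.93, LHCB3, a further LHCII subunit, at -0.89, and LHCB4.1, the main CP29 gene, at -0.80. In PSII they were PSBS (AT1G44575), which is needed for the heat dissipation of excess light, at -0.88, the oxygen-evolving protein gene PSBQ1 at -0.96 and the small membrane subunit PSBX at -0.65. In PSI they were PSAN, a lumenal subunit, at -0.77 and PSAE2, a stromal subunit near the ferredoxin site, at -0.68.

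Each of these 8 genes lost its adjusted p under 0.05 when some single library was left out, with LHCB3 above it in all 6 refits (0.0533 to 0.145). The highest adjusted p was 0.101 for LHCB6, 0.144 for LHCB4.1, 0.12 for PSBQ1, 0.165 for PSBX, 0.124 for PSAN and 0.215 for PSAE2.

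PSBS was at 2155, 1822 and 1144 FPKM in DMSO and 962, 998 and 749 with AMF4 (adjusted p = 0.0121, and 0.0699 without DMSO replicate 1 and 0.0526 without AMF4 replicate 3), and the groups did not overlap. The 4 PSI antenna genes did not pass with any compound at 6 h in limma (0 of 4, and 0 at unadjusted p under 0.05), with log2 fold changes with AMF4 from -0.55 to -0.23. LHCA4 (AT3G47470), the most abundant of them, was at 6916, 5729 and 5217 FPKM in DMSO and 4681, 4858 and 3661 with AMF4. Its 3 AMF4 libraries were all below the DMSO libraries.

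The most abundant members of the other complexes were not called at 6 h. PSBR was at 17056, 11517 and 9238 FPKM in DMSO and 10500.2, 9438 and 9526 with AMF4 at 6 h, overlapping ranges. PSAF (AT1G31330), a PSI subunit that docks plastocyanin, was at 8032, 6748 and 6688 in DMSO and 7456, 16171 and 4738 with AMF4, where replicate 2 held its highest value of any library. PETE2 (AT1G20340), the main plastocyanin gene, was at 5492, 4624 and 4201 in DMSO, 2589.6, 3297 and 3414 with ABA, 2681, 4328 and 2858 with AMF1 and 2921, 4679 and 1365 with AMF4. The ABA libraries were below all DMSO libraries for PETE2, but its difference did not pass (adjusted p = 0.22, and 0.0712 with AMF4).

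The count of 5 members lowered by AMF4 at 6 h depended on single libraries. It was 2 without DMSO replicate 1, 3 without DMSO replicate 2, 10 without DMSO replicate 3, 7 without AMF4 replicate 1, 8 when AMF4 replicate 2 was left out and 2 when AMF4 replicate 3 was. Without both AMF4 replicate 1 and DMSO replicate 3 it was 11, and with DMSO replicate 3 as the only control it was 0, as for ABA and AMF1. Against that library alone the adjusted p was 0.279 for LHCB1.1, 0.127 for LHCB1.2, 0.319 for RBCS1A and 0.419 for RBCS2B. The median log2 fold change with AMF4 ran from -0.70 to -0.38 over the single libraries left out. It was -0.30 after quantile normalization, which gives all libraries the same distribution of values.

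**Figure D2:**
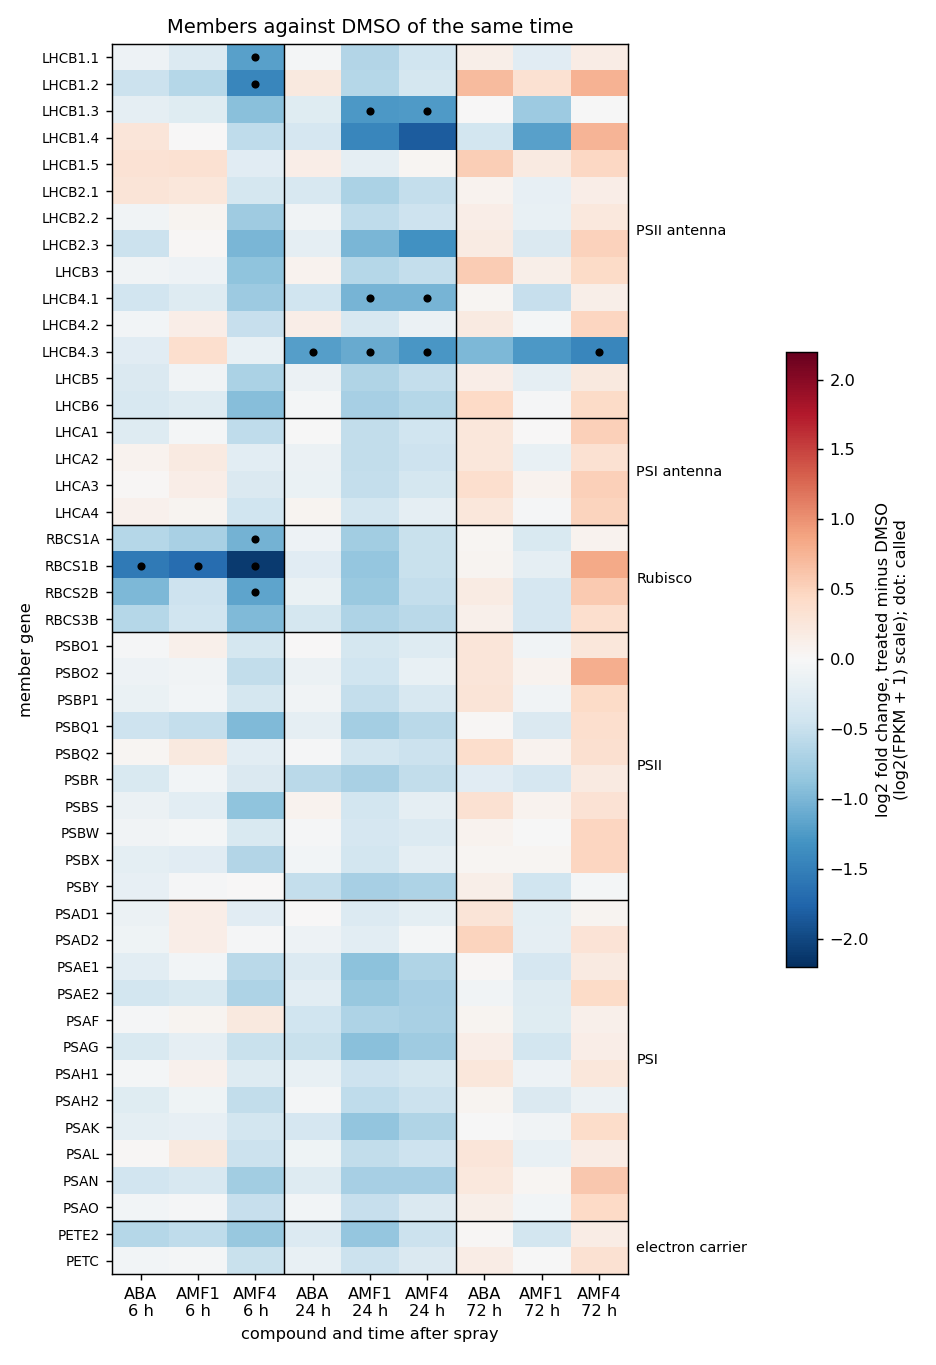
Log2 fold change against DMSO of the same time for each of the 46 members (vertical axis, grouped by complex) by compound and time (horizontal axis), with colour for treated minus DMSO on the log2(FPKM + 1) scale. A dot marks a called member, and all 15 dots mark lower values, 5 of them in the AMF4 column at 6 h.

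At 24 h, all called members were PSII antenna genes. LHCB4.3 fell with all 3 compounds, and LHCB1.3 and LHCB4.1 fell with AMF1 and AMF4. ABA lowered 1 member (0.491% of all genes), AMF1 3 (0.794%) and AMF4 3 (2.36%), and none rose. With adjusted p alone AMF1 lowered 6 (2.46%) and AMF4 3 (4.61%). All 46 members were below 0 with AMF1 and 45 with AMF4, against 38 with ABA, and 51.2%, 51.4% and 52.9% of all genes. The medians of the members were -0.63, -0.47 and -0.13 in that order, beside -0.01, -0.01 and -0.02 over all genes, and after quantile normalization the ABA median was above 0 (0.0428).

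Fewer members separated the groups. Every treated library was below every DMSO library for 5 members with ABA (9.55% of all genes), 7 with AMF1 (11.2%) and 16 with AMF4 (20.7%). DMSO replicate 2 at 24 h was low for nearly all members, and AMF1 replicate 2 was high, and these libraries crossed for LHCB1.3. The count with AMF1 depended on single libraries, since 9 members were called without DMSO replicate 2, 9 without AMF1 replicate 2, and 0 without any 1 of DMSO replicates 1 and 3 and AMF1 replicates 1 and 3. With AMF4 the count was 1 without DMSO replicate 1 or 3 or AMF4 replicate 2, and 0 without AMF4 replicate 1. Quantile normalization brought the medians to -0.10 for AMF1 and -0.15 for AMF4.

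LHCB4.3 was at 164, 90.4 and 171 FPKM in the DMSO libraries at 24 h. It was at 52.9, 59.1 and 62.7 with ABA, 54.2, 80.3 and 57.2 with AMF1 and 47.4 and 65 with AMF4. All 8 treated libraries were below the DMSO libraries. The gene fell with ABA (log2 fold change -1.22, SE 0.24, adjusted p = 0.0173), AMF1 (log2 fold change -1.11, SE 0.24, adjusted p = 0.013) and AMF4 (log2 fold change -1.28, SE 0.27, adjusted p = 0.00512). With ABA the adjusted p was 0.0771 without DMSO replicate 1, 0.0628 without DMSO replicate 3, 0.0676 without ABA replicate 2 and 0.0515 without ABA replicate 3. With AMF1 it was 0.0546 and 0.0683 without these DMSO libraries, and 0.0716 and 0.0523 without AMF1 replicates 1 and 3, and with AMF4 it was 0.11 without AMF4 replicate 1.

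At 6 h LHCB4.3 had been at 91.7, 64 and 79.8 FPKM in DMSO and at 132, 74.7 and 102 with AMF1, so that the difference turned from 0.36 to -1.11. The interaction of treatment and time was the only one called among the members (log2 fold change -1.47, SE 0.35, adjusted p = 0.0365). For AMF1 1 member was called (1.24% of all genes), and in limma 0 were called for ABA (5.25%, with 2 at unadjusted p under 0.05) and 0 for AMF4 (5.97%, with 2). The AMF1 interaction was not called without DMSO replicate 2 or 3 or any 1 AMF1 library at 6 h, or without DMSO replicate 1 or 2 or any 1 AMF1 library at 24 h (adjusted p from 0.0525 to 0.106).

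In the control, LHCB4.3 itself rose with time. In DMSO it went up from 6 to 24 h (log2 fold change 0.81, SE 0.24, adjusted p = 0.0127), within 2-fold, as did the LHCII gene LHCB2.1 (log2 fold change 0.68, SE 0.26, adjusted p = 0.0409), and LHCB4.3 stood at 175 FPKM in the DMSO library at 72 h. Both rises lost their adjusted p under 0.05 without single libraries, LHCB4.3 without DMSO replicate 2 of 6 h or 1 or 3 of 24 h (up to 0.0657) and LHCB2.1 without replicate 2 or 3 of 6 h or 1 or 3 of 24 h (up to 0.207). Within the LHCB4 family its share was 2.48, 2.07 and 2% in DMSO and 0.97, 1.17 and 1.11% with ABA at 24 h, groups that were well apart. With AMF1 the share was 1.73, 1.43 and 1.96%, close below the lowest DMSO library, and with AMF4 1.08 and 1.76%. Of the LHCB1, RBCS and LHCB4 genes, the 3 LHCB4 genes shared no 50-base stretch (0% of stretches) with any other gene.

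LHCB4.1 was at 3924, 2940.3 and 5193 FPKM in DMSO, 1669.7, 2783 and 1528 with AMF1 and 2125 and 1753 with AMF4 at 24 h. Neither treated group overlapped DMSO, and the gene fell with AMF1 (log2 fold change -1.03, SE 0.26, adjusted p = 0.0284) and AMF4 (log2 fold change -1.02, SE 0.29, adjusted p = 0.0323). With ABA it was at 3044, 2656 and 2939, a difference that did not pass (adjusted p = 0.472). The AMF1 call was lost without DMSO replicate 1 or 3 or AMF1 replicate 1 or 3 (adjusted p 0.0671 to 0.124). The AMF4 call was lost without DMSO replicate 1 or 3 or either AMF4 library (adjusted p 0.0661 to 0.264).

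LHCB1.3 was at 22904, 13791 and 31660.5 FPKM in DMSO, 19073, 17792 and 16678 with ABA, 8092, 16539 and 5368 with AMF1 and 10646 and 7726 with AMF4. The AMF4 libraries were below all DMSO libraries (log2 fold change -1.25, SE 0.39, adjusted p = 0.0496), while AMF1 replicate 2 lay above DMSO replicate 2 (log2 fold change -1.27, SE 0.35, adjusted p = 0.041). The AMF1 call was lost without DMSO replicate 1 or 3 or AMF1 replicate 1 or 3 (adjusted p 0.101 to 0.189), and the AMF4 call without DMSO replicate 1 or 3 or either AMF4 library (0.107 to 0.360) and with the replicate number as a block (0.0511). The share of LHCB1.3 in the LHCB1 family was 53.5, 58.4 and 54.9% in DMSO, 43.4, 47.5 and 34.1% with AMF1 and 41.9 and 35.7% with AMF4. Neither of these groups overlapped DMSO, whose replicate 2, low in level, was the highest in share. Of their 50-base stretches, 22% for LHCB1.3, 13.7% for LHCB1.4 and 100% for LHCB1.5 occur in another gene. For LHCB1.5 that gene is annotated on the other strand. Part of the reads behind the LHCB1 shares may thus have been assigned to another gene.

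Of 12 PSI genes 3 fell with AMF1 at 24 h past adjusted p but within 2-fold. PSAG (AT1G55670), a subunit on the LHCI side of PSI, was at 6604, 6558 and 8767 FPKM in DMSO and 3329.5, 5371 and 3139 with AMF1 (log2 fold change -0.92, SE 0.26, adjusted p = 0.0462). PSAK, which lies opposite to it in PSI, had a log2 fold change of -0.87 and PSAE1, a stromal subunit, one of -0.90. All 3 lost their adjusted p under 0.05 without DMSO replicate 1 or 3 or AMF1 replicate 1 or 3, and PSAG also without DMSO replicate 2 (adjusted p up to 0.17 for PSAG, 0.168 for PSAK and 0.134 for PSAE1). PSAG and PSAE1 share 58.8% and 29.1% of their 50-base stretches with genes annotated on the other strand. Strand use in the counting is not given in the sources used here, so that reads of these overlapping genes cannot be told apart.

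RBCS1A was at 19484, 16506 and 27752 FPKM in DMSO at 24 h, 18693, 19108 and 19994 with ABA, 11957, 18849.5 and 8199 with AMF1 and 17589.5 and 12491 with AMF4. RBCS1B was at 1886, 1173 and 4063 in DMSO and 1875, 1632 and 1769 with ABA, 1008, 1869 and 818 with AMF1 and 1713 and 1285 with AMF4. The treated libraries of RBCS1B all lay within or below the wide DMSO range, and no RBCS gene was called at 24 h in limma (0 of 4, with 0, 1 and 0 at unadjusted p under 0.05 for ABA, AMF1 and AMF4). For RBCS1B with AMF4 the difference changed by 1.62 on the log2 scale from 6 to 24 h (SE 0.55, adjusted p = 0.0684), which did not pass.

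The leading genes of the remaining complexes were not called at 24 h. LHCA4 was at 5889, 3859 and 6594 FPKM in DMSO, 5483, 5112 and 6016 with ABA, 3498, 5763 and 3217 with AMF1 and 5161 and 4199.9 with AMF4 (log2 fold change -0.40, SE 0.25, adjusted p = 0.354 for AMF1). PSBR was at 15555, 11514 and 17078 in DMSO, 11051, 10149 and 8077 with ABA, 7863, 9749 and 9137 with AMF1 and 10602 and 9320.0 with AMF4 (log2 fold change -0.71, SE 0.23, adjusted p = 0.0816 for AMF1). The DMSO libraries of PSBR were above all treated libraries, whereas those of LHCA4 overlapped them, and neither difference passed. PSAF was at 5476, 8379 and 6731 in DMSO, 3921, 5533 and 3511 with AMF1 and 4453 and 3861 with AMF4, and PETE2 at 4318, 3783 and 5903, 2374, 3980.4 and 1752 and 3871 and 2798 in the same order, again without a call.

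By complex, the medians with AMF1 at 24 h lay close together, at -0.69 for the PSII antenna, -0.53 for the PSI antenna, -0.78 for Rubisco, -0.43 for PSII, -0.61 for PSI and -0.66 for the electron carriers. With AMF4 at 6 h they were -0.79, -0.37, -1.11, -0.39, -0.48 and -0.66 in the same order. Rubisco thus had the lowest median in both. With ABA at 6 h Rubisco had a median of -0.81 and with AMF1 at 6 h -0.58, while the PSII antenna was at -0.15 and -0.04 and PSI at -0.17 and -0.04. At 24 h with ABA the medians of all 6 complexes were between -0.24 and -0.07.

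**Figure D3:**
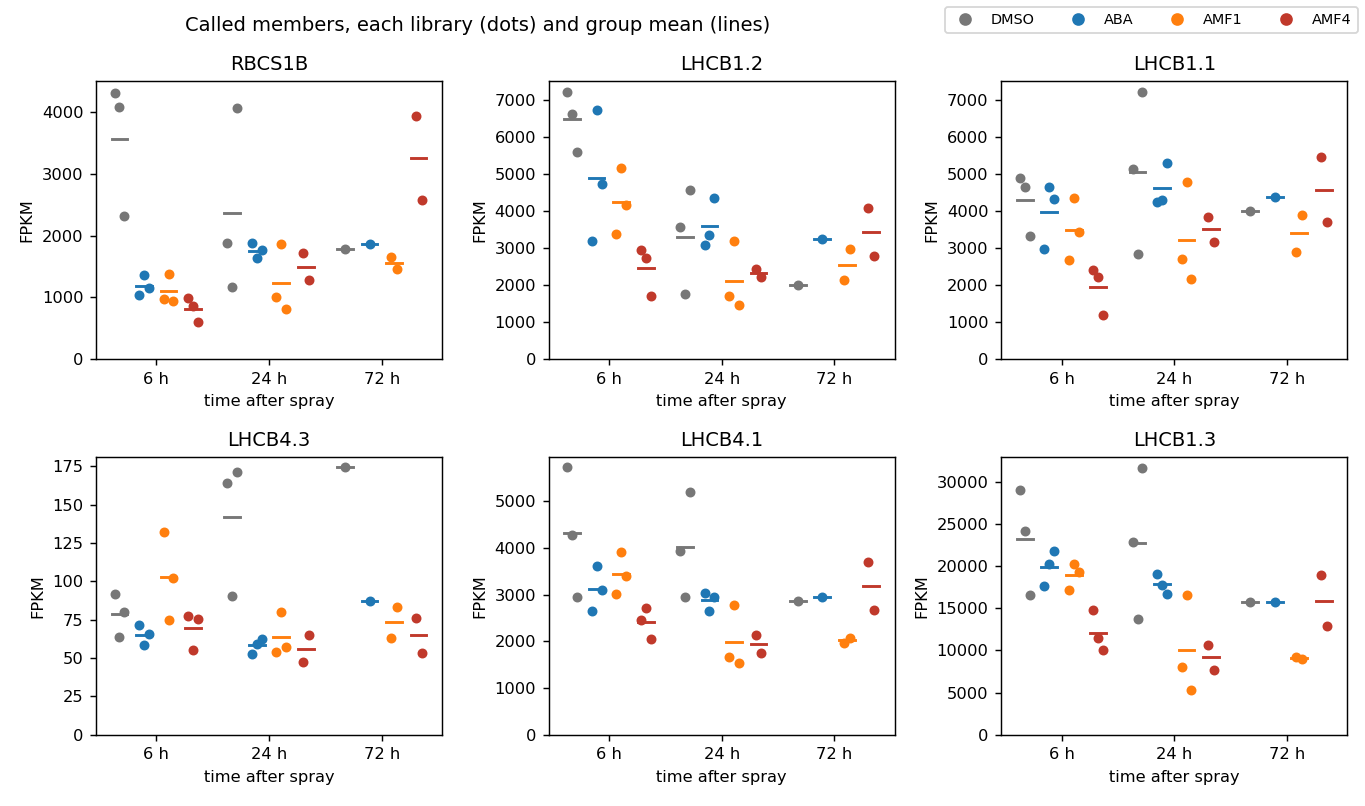
FPKM of 6 called members (1 panel each, vertical axis from 0) in each library (dots) with the group mean (line), by time and compound. RBCS1B at 6 h lies between 599 and 1380.4 FPKM in all treated libraries and between 2314 and 4320.3 in DMSO, and LHCB4.3 at 24 h is at most 80.3 FPKM in all treated libraries and at 90.4 or more in DMSO.

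At 72 h few differences could be tested, with 1 DMSO and 1 ABA library that the fit assumes to vary like the other groups. In limma ABA changed 0 members (0% of all genes called lower, 1 member at unadjusted p under 0.05), AMF1 0 (0%, 1) and AMF4 1 (0.427%, 1). The called member was again LHCB4.3, at 175 FPKM in DMSO, 87.5 with ABA, 63.4 and 83.1 with AMF1 and 76.4 and 53.5 with AMF4. The DMSO library was the highest of the 29 libraries for this gene. The fall with AMF4 (log2 fold change -1.44, SE 0.37, adjusted p = 0.0477) was lost without AMF4 replicate 1 (adjusted p = 0.0982) or replicate 2 (0.168) and with the replicate number as a block (0.0675).

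The other members leaned the opposite way with AMF4 at 72 h, with 42 of 46 above 0 and a median of 0.34. With ABA 41 were above 0 (median 0.15) and with AMF1 10 (median -0.18). Of all genes, 50.6%, 46.3% and 53.8% were below 0 with AMF4, ABA and AMF1. These comparisons share 1 DMSO library, and members moved together between libraries, so the counts are not 46 separate observations. The members' mean log2 value was 11.43 in DMSO and 11.99 and 11.49 in AMF4 replicates 1 and 2. After quantile normalization the AMF4 median was 0.019. RBCS1B was at 3942 and 2585 FPKM with AMF4 and 1784 in DMSO (log2 fold change 0.84, SE 0.55, adjusted p = 0.527), a difference that did not pass. Against DMSO of both 24 and 72 h, the AMF4 median was 0.04 and the ABA median turned to -0.094.

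Between compounds at matched dose and time, no member was called in any of the 9 comparisons. At 6 h limma called 0 members for AMF1 against ABA (0.367% of all genes, 1 member at unadjusted p under 0.05), 0 for AMF4 against ABA (0.508%, 7) and 0 for AMF4 against AMF1 (0%, 15). At 24 h it called 0 for AMF1 against ABA (1.45%, 7), 0 for AMF4 against ABA (2.13%, 2) and 0 for AMF4 against AMF1 (0%, 0). At 72 h it called 0 for AMF1 against ABA (0%, 0), 0 for AMF4 against ABA (0.626%, 0) and 0 for AMF4 against AMF1 (0.054%, 4). Medians of the members were -0.37 for AMF4 against ABA and -0.48 for AMF4 against AMF1 at 6 h, and -0.46 for AMF1 against ABA and 0.13 for AMF4 against AMF1 at 24 h.

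The member nearest to a call between ABA and AMF4 at 6 h was LHCB1.1, chosen after its values were seen. It was at 2976, 4636 and 4328 FPKM with ABA, 2672, 4353 and 3437 with AMF1 and 2402, 2209 and 1203 with AMF4. AMF4 and ABA did not overlap, with a log2 difference of -1.07 (95% interval -1.80 to -0.35, adjusted p = 0.0959). For RBCS1B the difference between AMF4 and ABA at 6 h was -0.56 (-1.31 to 0.20) and between AMF1 and ABA -0.12 (-0.88 to 0.64). Both intervals include 0. At 24 h LHCB1.3 differed between AMF1 and ABA by -0.99 (-1.72 to -0.26, adjusted p = 0.128) and LHCB4.3 by 0.11 (-0.40 to 0.62). At 72 h LHCB1.4 was 1.96 higher on the log2 scale with AMF4 than with AMF1 (0.34 to 3.58, adjusted p = 0.316).

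In the DMSO plants themselves, 2 of 46 members were called lower at 24 h than at 6 h, both of the LHCB1 family. Of all 18521 genes tested, 1236 were called lower (14.6% in either direction), so the members' count did not exceed the share over all genes. LHCB1.4 (AT2G34430) was at 6547, 4743 and 4089.8 FPKM at 6 h and 1651, 748 and 3116 at 24 h (log2 fold change -1.68, SE 0.64, adjusted p = 0.0418), and LHCB1.2 was at 7233, 6622 and 5609 and 3583, 1765 and 4584 (log2 fold change -1.07, SE 0.35, adjusted p = 0.0205). For neither gene did the times overlap. Time after the spray and hour of the day cannot be told apart here. The clock gene LHY, at 27.9, 10.6 and 0.436 FPKM at 6 h, was at 132, 240.1 and 139 at 24 h. The count of lower members was 0 without DMSO replicate 1 or 2 of 6 h or replicate 2 of 24 h, and 1 without DMSO replicate 3 of 6 h or replicate 1 of 24 h. Without replicate 2 of 24 h, LHCB4.3 was called higher instead (adjusted p = 0.00148).

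The share of LHCB1.4 was lower at 24 h than at 6 h in every library of each treatment. It made up 10.8, 9.3 and 10.6% of the LHCB1 family in DMSO at 6 h and between 6.63% and 15.4% with the compounds, against 3.86, 3.17 and 5.4% in DMSO and 1.12% to 4.98% with the compounds at 24 h. LHCB1.4 had the widest range of all members, from 177 FPKM in AMF1 replicate 3 at 24 h to 7300.3 FPKM in ABA replicate 3 at 6 h. Its lower level with AMF4 at 24 h, at 502 and 383 FPKM, did not pass (adjusted p = 0.118). Since LHCB1 genes share sequence with other genes, part of the reads behind these levels and shares may belong to another gene.

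**Figure D4:**
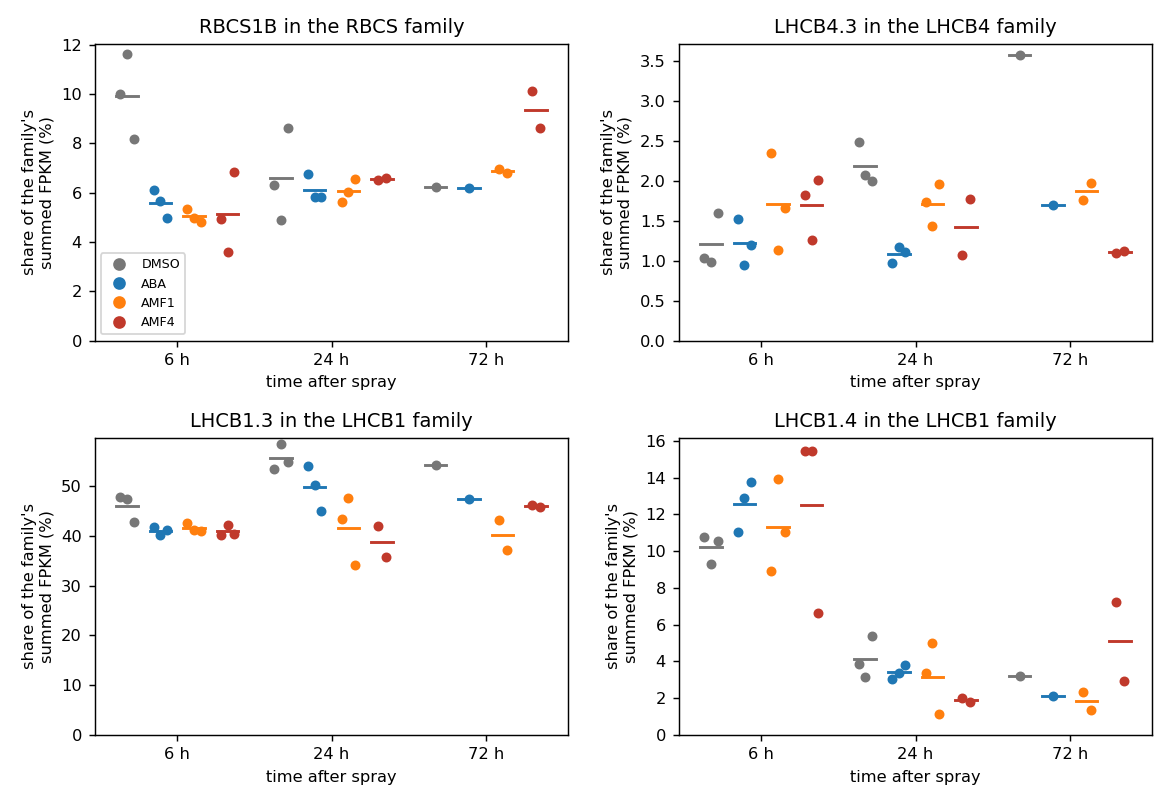
Share of a gene in the summed FPKM of its family (vertical axis, percent, from 0) in each library (dots) with the group mean (line), by time and compound. The share of RBCS1B at 6 h is 8.18% to 11.6% in DMSO and 3.6% to 6.85% with the compounds, and that of LHCB1.4 is at least 6.63% in every library at 6 h and at most 5.4% at 24 h.

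Further genes of the chloroplast, taken from lists of the same pathways, moved in part with the members. At 6 h with AMF4, 3 of 15 other genes of the light reactions fell (4.35% of all genes were called lower), among them FD2, a leaf ferredoxin (log2 fold change -1.20), and ATPD, a subunit of the chloroplast ATP synthase (-1.09). Of 16 Calvin cycle genes 3 fell, with GAPA2, a glyceraldehyde-3-phosphate dehydrogenase, at -1.504, and of 17 chlorophyll synthesis genes 5 fell, with CHLI1, a subunit of magnesium chelatase, at -1.29. The medians of these lists were -0.55, -0.64 and -0.997, beside 0.09 over all genes. ABA called 0 genes of the 3 lists at 6 h in limma (4, 9 and 6 at unadjusted p under 0.05), and AMF1 called 2 of the chlorophyll synthesis genes lower.

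Chlorophyll breakdown genes went the other way. At 6 h each compound raised 4 of 6 (688, 498 and 780 of 18521 genes were called higher with ABA, AMF1 and AMF4), with medians of 1.68, 1.47 and 1.55. PAO, which opens the ring of the breakdown product pheophorbide a, rose with all 3 compounds, most with ABA (log2 fold change 2.41, SE 0.25, adjusted p = 1.52e-06). PPH, SGR1 and SGR2, further genes of the same pathway, also rose with all 3. At 24 h none of the 6 was called in limma (0, 5 and 2 at unadjusted p under 0.05 with ABA, AMF1 and AMF4). CP12-1, a small protein that holds Calvin cycle enzymes inactive, fell with all 3 compounds at 24 h, at log2 fold changes of -1.26, -1.41 and -1.18. Of 11 clock genes 2 were called lower with ABA at 6 h, and 1 each with AMF1 and AMF4. LHY was called lower with all 3 compounds, although its DMSO replicate 3 overlapped the treated libraries. CGA1, a GATA factor linked to chloroplast development, rose with AMF4 at 24 h (1.23) and was the only one of 9 regulators of photosynthesis genes called at that time.

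Most plastid-encoded partners of the members were called higher with AMF4 at 6 h. Of 11 plastid-encoded photosynthesis genes 8 were called higher (780 of 18521 genes tested were), with a median of 2.49. Their summed FPKM was 4827 to 11216 against 1460.5 to 6039.6 in DMSO (lowest and highest library, ranges that overlap). All plastid genes held 7.09, 5.92 and 3.13% of the summed FPKM with AMF4 at 6 h, against 2.09, 3.21 and 1.58% in DMSO. The highest share was in AMF4 replicate 1, which listed 21835 genes at 1 FPKM or more and had the lowest relative depth. No refit of the plastid genes without that library is given here. This share varied within groups, as from 0.313% to 4.25% with ABA at 24 h. With ABA and AMF1 at 6 h limma called 0 of 11 (0 at unadjusted p under 0.05, medians 0.32 and 0.65). At 24 h it called 0 of 11 with each compound (2, 1 and 1 at unadjusted p under 0.05 for ABA, AMF1 and AMF4), and the medians were below 0 like those of the members, at -1.10, -0.73 and -0.93. How RNA was selected for the libraries is not given in the sources used here, and the part of plastid RNA in the members' values was not tested. With plastid and mitochondrial genes left out of the sum, the members held 14.8% to 27.4% of the remaining FPKM.

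Of the guard cell markers, GC1 and MYB60 were called lower with the treatments, and KAT1, FAMA and HT1 were not. At 6 h 2 of 5 fell with ABA, 2 with AMF1 and 1 with AMF4, and at 24 h 0, 2 and 2, with GC1 and MYB60 as those called, and GC1 alone with AMF4 at 6 h. Their summed FPKM at 6 h was 122 to 149 in DMSO, 35 to 44.9 with ABA, 36.2 to 49.2 with AMF1 and 23.7 to 44.1 with AMF4. At 24 h it was 65.8 to 93.8 in DMSO, 41.3 to 50.5 with ABA, 26.9 to 34 with AMF1 and 17.2 to 17.8 with AMF4. Most of the sum came from GC1, at 107, 92.8 and 120.2 FPKM in DMSO at 6 h. KAT1, a guard cell potassium channel, went up with ABA at 6 h, from 11.1, 9.94 and 8.96 to 28.9, 13.8 and 20 FPKM, past adjusted p but within 2-fold (log2 fold change 0.94, SE 0.31, adjusted p = 0.0355), and FAMA and HT1 overlapped DMSO at 6 h with each of the 3 compounds. None of the 5 was at 0 in any library, and 1 of 3 epidermis markers, KCS2, rose at 6 h with ABA and AMF4. The 2 phloem companion cell markers were not called with any compound. The part of other cell types in the members' results was not tested.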

How the data were processed

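Leaves of sprayed Col-0 plants were profiled by RNA-seq in 29 libraries of 12 groups, set by compound and time in the labels. The authors deposited FPKM values per gene, computed with Cufflinks after TopHat2 alignment to TAIR10 according to the submitters' processing notes. For these tools the version was not given in the sources used here. Read totals are not part of the table. Relative depth, estimated from the spacing of low values, lay between 0.442 and 2.21. All columns of values were assigned to a sample (0 left over), and no libraries were identical (0 pairs).

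The 18521 genes that reached 1 FPKM in 2 or more libraries were tested with limma 3.58.1 in R 4.3.3 on log2(FPKM + 1), with a trend in the spread and 1 fit over all groups (17 residual degrees of freedom), and p-values were adjusted by Benjamini-Hochberg. Fold changes on this scale understate changes of low genes. The study states duplicate biological replicates, but the groups here hold 1 to 3 libraries, and the origin of the third ones is not given. Nor do the sources say that libraries came from separate sprays or pots. The p-values thus reflect only how these libraries vary, which may be technical. The single DMSO and ABA libraries at 72 h were assumed to vary like the other groups.

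Members were described by complex. Values in each library were given for the most abundant member of each complex and for called members, up to 3 per direction and comparison by fold change, and other lists by up to 3 called genes. The members and lists were chosen with earlier results of these data known. Promoters are the 250 bases before each gene start in RefSeq TAIR10.1, and shared sequence was counted in 50-base stretches of transcripts and overlapping genes (16 members overlap another gene). The code was tested on simulated data. Alternatives changed the pseudocount, filter, scaling, samples and call rule. Samples taken before treatment and transgenic plants were not analysed here.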

Additional observations from a re-analysis of the deposited data

Results flagged for a closer look

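LHCB4.3, a minor form of the antenna protein CP29, was the member whose difference from DMSO changed between times with AMF1, by -1.47 on the log2 scale from 6 to 24 h (SE 0.35, adjusted p = 0.0365, limma interaction). All 3 AMF1 libraries at 24 h were below all 3 DMSO libraries, whereas the groups overlapped at 6 h. LHCB4.3 was also called lower at 24 h with ABA and AMF4, so the fall at that time was shared by all 3 compounds. Of 12 refits with single libraries left out, 10 lost the interaction call (adjusted p up to 0.106). No group of 4 or more libraries was present to examine single libraries for distance from the rest.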

How the results depend on the processing

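No called member changed its direction under the alternatives run, while medians near 0 did, at 0.0234 for AMF1 at 6 h and 0.0428 for ABA at 24 h after quantile normalization, 0.089 for ABA and 0.228 for AMF1 at 6 h against DMSO replicate 3 alone, and -0.094 for ABA at 72 h with DMSO of both later times. Without the filter on low values 3 members were called for AMF4 at 6 h, 1 each for AMF1 and AMF4 at 24 h, 1 for DMSO over time and 0 for the AMF1 change with time. After quantile normalization the counts were 2, 0 and 1 for these compounds and times and 1 for DMSO over time, and 1 each for AMF4 against ABA at 6 h and for the ABA and AMF4 changes with time, and the medians were -0.10 for AMF1 and -0.15 for AMF4 at 24 h and 0.0188 for AMF4 at 72 h. With libraries of 24 h alone the counts were 0 for ABA and 1 each for AMF1 and AMF4. With adjusted p alone they were 14 for AMF4 at 6 h, 6 for AMF1 at 24 h and 5 for DMSO over time. At 72 h AMF4 called 0 members with log2(FPKM + 0.1), no filter, median-of-ratios scaling, libraries of that time alone, no trend in the spread and the replicate block. Without both AMF4 replicate 1 and DMSO replicate 3 of 6 h, 11 members were called for AMF4 at 6 h, 0 for the AMF1 change, 1 for the AMF4 change and 1 for DMSO over time. With DMSO replicate 3 as the only 6 h control, 0 were called for any compound at 6 h and 0 for the AMF1 change. With DMSO of 24 and 72 h as the control the AMF4 median at 72 h was 0.0411. The cause of these shifts was not tested.

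With single libraries left out, counts ran from 2 to 10 for AMF4 at 6 h, 0 to 1 for ABA, 0 to 9 for AMF1 and 0 to 4 for AMF4 at 24 h, 0 to 0 for AMF4 at 72 h, 0 to 1 for AMF1 against ABA at 24 h, 0 to 1 for each change with time and 0 to 3 for DMSO over time. Medians ran from -0.70 to -0.38 for AMF4 at 6 h, -0.21 to 0.08 for AMF1 at 6 h, -0.38 to 0.09 for ABA, -0.87 to -0.38 for AMF1 and -0.71 to -0.26 for AMF4 at 24 h, and 0.09 to 0.59 for AMF4 at 72 h. For single members, 54 of these refits lost a call and 14 gained one, and 129 did neither.

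The main fit did not pair libraries by replicate number. Of 27 same-numbered pairs 8 had a correlation of deviations over 0.1 (range -0.25 to 0.24). Deviations within a small group depend on each other, so these values cannot show whether libraries were paired. With the replicate block AMF4 at 24 h called 2 members, LHCB1.3 with AMF4 at 24 h had an adjusted p of 0.0511 and LHCB4.3 with AMF4 at 72 h one of 0.0675. The table gives no reads per library, and the 72 h comparisons rest on 1 DMSO library.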
